A study of Pyrocoelia pectoralis with 6 samples.

Results

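This account covers the innate immunity genes of the firefly Pyrocoelia pectoralis: the genes that recognise microbes, pass the signal on, hold it in check and attack. Members were the genes whose deposited description named peptidoglycan, a glucan-binding protein, Toll, spaetzle, a lectin, a scavenger receptor, hemocytin, a serpin or a lysozyme, and 58 of the 12533 genes in the table were taken this way. The words defensin, attacin, coleoptericin, thaumatin and Relish were searched as well, and 0 descriptions held any of them, so antimicrobial peptides are not analysed here. Descriptions rest on similarity to proteins of other species, and the 58 members share 37 of them, so each gene is given with its identifier.

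RNA was sequenced from 3 libraries of the luminous organ, the tissue that makes the light, and 3 libraries of the non-luminous organ, a tissue the labels name no further. All libraries came from males. The labels give no age, treatment or infection. Whether 1 library stands for 1 animal or for a pool is not stated, so the p-values speak of library-to-library spread, part of which may be technical. The labels name no question beyond sequencing the transcriptome, and the organs differ in more than light production, which this design cannot separate.

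Insects have no antibodies and rely on germline-encoded receptors. Peptidoglycan-recognition proteins (PGRPs) bind bacterial cell walls, and glucan-binding proteins bind fungal and bacterial surface sugars. In Drosophila the bound receptors set off protease cascades that cut spaetzle, the ligand of the receptor Toll, or switch on the immune deficiency (IMD) pathway inside the cell, and both lead to NF-kappa-B transcription factors that turn on antimicrobial genes. Serpins are suicide inhibitors that stop such proteases, and the same kind of cascade activates phenoloxidase, which makes melanin around invaders.

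Values are FPKM, which are scaled to gene length and library total and so allow levels of different genes to be compared. The totals behind them came to 18.95 to 20.42 M reads (M for mega) in the luminous libraries and 18.04 to 18.86 M reads in the non-luminous libraries. The luciferase gene RI129_003463, described as luciferin 4-monooxygenase, checked the labels: it stood at 532, 374 and 292 FPKM in luminous replicates 1, 2 and 3 and at 0.322, 0.595 and 0.505 FPKM in the non-luminous replicates. Principal component 1 parted the organs with 69.7% of the variance, and component 2, with 15.7%, parted luminous replicate 1 from the other luminous libraries. Among the members the same library was the lowest of its organ in 34 of 55 tested genes (61.8%), against 33.8% of all tested genes, so member calls that change without it are given both ways. Over the tested members the median SD of the log2 values was 0.301 in the luminous organ and 0.193 in the non-luminous organ, against 0.238 and 0.17 over all tested genes.

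Immune genes changed in both directions. PGRPs, glucan-binding proteins, scavenger receptors and lysozymes, 4 of the 12 role groups, each held higher and lower members. Of the 58 members, 55 had a mean of at least 1 FPKM and were tested, and 20 of these were called by limma at a Benjamini-Hochberg adjusted p under 0.05, 8 higher and 12 lower in the luminous organ. Over all 9863 genes tested, 26.6% were called, 9.63% higher and 17.0% lower, against 36.4% of the tested members. The values of the organs did not overlap in 33 of the 55 tested members (60%), against 46.1% of all tested genes. Each difference given here is the luminous mean of log2(FPKM + 1) less the non-luminous mean, a scale that shrinks the changes of low genes. Its median was 0.00 over the members and -0.09 over all tested genes. In size regardless of sign, the median difference was 0.53 over the members and 0.35 over all tested genes. Among called members, 4 higher and 9 lower ones had a rounded difference of at least 1 in size, which is 2-fold on that scale.

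Of the 20 calls, 11 held under all 14 alternatives tried, 5 of them higher and 6 lower. Without luminous replicate 1, 24 members were called, 11 higher and 13 lower. Without non-luminous replicate 3, 12 members were called, 5 higher and 7 lower. Quantile normalization called 22 members and turned the split to 12 higher and 10 lower. In bulk tissue, fewer cells of a type and less RNA per cell cannot be told apart, and this holds for every difference given here. Members that were neither called nor the most abundant of their group are described as well, and they were chosen after their values were seen.

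**Figure D1:**
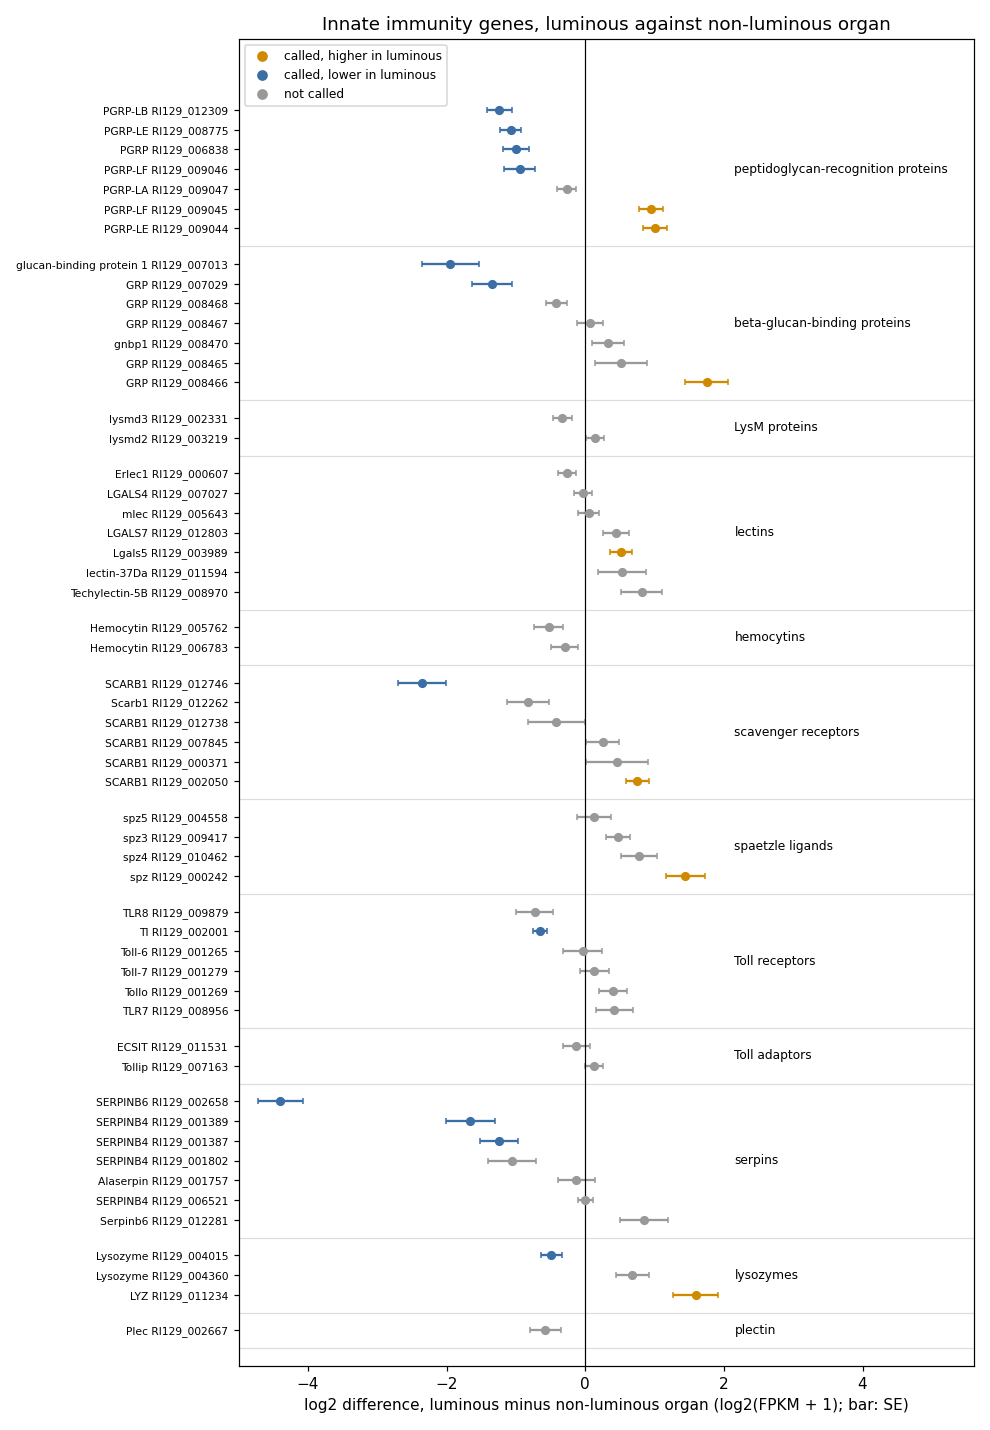
Difference between organs of the tested members, 1 lectin left out, as the luminous less the non-luminous mean of log2(FPKM + 1), grouped by role (points, limma estimates; bars, SE; n = 3 libraries per organ; gold, called higher; blue, called lower; grey, not called). PGRPs, glucan-binding proteins, scavenger receptors and lysozymes have called members on both sides of 0, and the SERPINB6 gene RI129_002658 lies farthest out at -4.40.

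The PGRPs were the family with the highest share of called members, 85.7% beside 26.6% of all tested genes. Of 7, 2 were higher and 4 lower in the luminous organ. PGRP-LB (RI129_012309), which in Drosophila cuts peptidoglycan and so dampens IMD signalling, was the most abundant of them in both organs. It stood at 106, 129 and 155 FPKM in the luminous libraries, against 369, 256 and 299 FPKM in the non-luminous libraries. Every luminous value lay under every non-luminous one, and the difference was -1.24 (SE 0.185, limma adjusted p = 0.00464). The gene described only as a peptidoglycan-recognition protein, PGRP (RI129_006838), had 34.6, 55.2 and 41.9 FPKM in the luminous libraries and 96.3, 75.9 and 90.7 FPKM in the non-luminous ones. Its organs did not overlap either, and it was lower by 2.0-fold in mean FPKM (difference -1.0, limma adjusted p = 0.00943).

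Genes with the same PGRP name went in opposite directions. PGRP-LE is a Drosophila sensor of bacterial peptidoglycan that acts outside and inside the cell, and 2 genes carry its name here. PGRP-LE (RI129_009044) stood at 52.9, 33.9 and 44.6 FPKM in the luminous libraries, against 20.2, 20.9 and 21.9 FPKM in the non-luminous libraries. It was higher by 1.0 (SE 0.173, limma adjusted p = 0.00741). The other PGRP-LE gene (RI129_008775) stood at 7.98, 9.24 and 8.28 FPKM in the luminous libraries, against 21.4, 17.9 and 18.1 FPKM in the non-luminous libraries, and was lower by 2.25-fold in mean FPKM (difference -1.08, limma adjusted p = 0.00363). Neither gene had overlapping organs.

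PGRP-LF, in Drosophila a receptor-like protein that blocks IMD signalling, was likewise the name of 2 genes. PGRP-LF (RI129_009045) had 30.8, 24.3 and 30.6 FPKM in the luminous libraries and 14.6, 16.6 and 11.9 FPKM in the non-luminous ones, and was higher by 0.95 (SE 0.170, limma adjusted p = 0.00834). PGRP-LF (RI129_009046) was a low gene, with 2.05, 1.61 and 2.11 FPKM in the luminous libraries and 5.98, 4.30 and 3.81 FPKM in the non-luminous ones, and its difference was -0.95 (SE 0.228, limma adjusted p = 0.0218). Its call held under 8 of the 13 alternatives in which it was tested. It was lost without non-luminous replicate 1, 2 or 3 (adjusted p = 0.0744, 0.0599 and 0.0501) and under quantile normalization (0.0668), with 0.0147 as the lowest over all alternatives. PGRP-LA (RI129_009047), a family member known in Drosophila as a modulator of IMD signalling, averaged 40.4 ± 6.05 FPKM in luminous libraries and 48.5 ± 3.34 FPKM in non-luminous libraries (SD, n = 3 each) and was not called (limma adjusted p = 0.203). The identifiers of these last genes and of the higher PGRP-LE run on from RI129_009044 to RI129_009047, but gene positions are not given in the files used here. How far reads were shared between such related genes was not tested.

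Glucan-binding proteins, which in other insects start the Toll and phenoloxidase cascades, split in the same way, with 1 of 7 higher and 2 lower. The called share was 42.9%, beside 26.6% of all tested genes. GRP (RI129_008466), described as a beta-1,3-glucan-binding protein, stood at 107, 113 and 245 FPKM in the luminous libraries, against 39.8, 50.1 and 37.0 FPKM in the non-luminous libraries. All luminous values were above all non-luminous ones, luminous replicate 3 by the most, and the gene was higher by 3.67-fold in mean FPKM (difference 1.75, SE 0.311, limma adjusted p = 0.00808). GRP (RI129_007029) had 12.5, 27.6 and 15.6 FPKM in the luminous libraries and 39.6, 42.2 and 60.2 FPKM in the non-luminous ones, and was lower with a difference of -1.35 (SE 0.292, limma adjusted p = 0.0153). That call was lost without luminous replicate 3 (adjusted p = 0.0525) or non-luminous replicate 3 (adjusted p = 0.0636, and 0.00337 to 0.0636 over all alternatives).

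On the log2(FPKM + 1) scale, the largest change in this family was in a low gene, RI129_007013, described as beta-1,3-glucan-binding protein 1. It had 0.275, 2.56 and 2.62 FPKM in the luminous libraries and 7.60, 8.85 and 10.2 FPKM in the non-luminous ones. The organs did not overlap, luminous replicate 1 was far under the other luminous libraries, and the difference was -1.95 (SE 0.412, limma adjusted p = 0.0143). Without non-luminous replicate 3 the adjusted p was 0.0617 (0.00433 to 0.0617 over all alternatives). The gene was read 39 times in the 3 luminous libraries and 178 times in the 3 non-luminous ones.

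Other abundant glucan-binding genes were not called. The gene gnbp1 (RI129_008470) averaged 175 ± 64.3 FPKM in luminous libraries and 134 ± 10.3 FPKM in non-luminous libraries (SD, n = 3 each). GRP (RI129_008467), the most abundant of the family in the non-luminous organ, averaged 165 ± 40.8 FPKM in luminous libraries and 154 ± 6.63 FPKM in non-luminous libraries (SD, n = 3 each). GRP genes RI129_008468 and RI129_008465 were not called either, with differences of -0.42 and 0.52. The low gene RI129_008465 was called only without luminous replicate 1 (limma adjusted p = 0.0345, and 0.0345 to 0.692 over all alternatives). Identifiers RI129_008465 to RI129_008468 and RI129_008470 again lie close together, and 1 of these 5 genes was called.

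**Figure D2:**
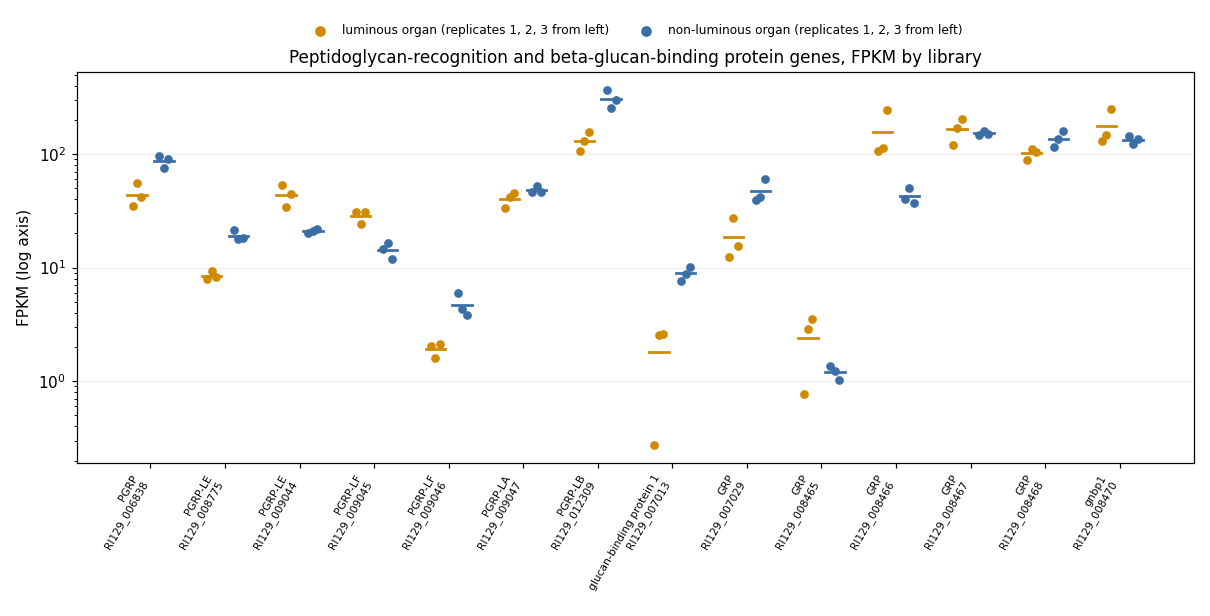
FPKM (log axis) of the 7 PGRP and 7 glucan-binding protein genes in each library (points; luminous organ gold, left; non-luminous organ blue, right; lines, means of 3 libraries). PGRP-LE and PGRP-LF each name a gene that is higher and a gene that is lower in the luminous organ, and luminous replicate 1 is the lowest point, 0.275 FPKM, of the glucan-binding protein gene RI129_007013.

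Lectins bind sugars, and 2 of 8 were called, a share of 25.0% beside 26.6% of all tested genes. Both were higher in the luminous organ. Lgals5 (RI129_003989), a galectin, stood at 134, 92.6 and 94.1 FPKM in the luminous libraries, against 76.5, 71.9 and 72.0 FPKM in the non-luminous libraries. Its difference of 0.52 was at the threshold (SE 0.159, limma adjusted p = 0.0493) and was called under 4 of 14 alternatives (adjusted p 0.0214 to 0.140). Without luminous replicate 1 the adjusted p was 0.0586.

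The lectins that follow were not called. Techylectin-5B (RI129_008970), named after a horseshoe crab lectin that binds bacterial sugars, averaged 6.84 ± 1.93 FPKM in luminous libraries and 3.50 ± 1.26 FPKM in non-luminous libraries (SD, n = 3 each; limma adjusted p = 0.0771). It was called under quantile normalization (adjusted p = 0.0289) and without luminous replicate 1 (0.0396), with 0.223 as the highest over all alternatives. The difference of lectin-37Da (RI129_011594), a Drosophila galactose-binding lectin, was 0.53. The galectin genes LGALS7 (RI129_012803) and LGALS4 (RI129_007027) differed by 0.44 and -0.04, and LGALS7 was called only under quantile normalization (limma adjusted p = 0.0499, up to 0.298 over the alternatives). The search word also took in mlec (malectin, RI129_005643) and Erlec1 (RI129_000607), which bind glycoproteins inside the endoplasmic reticulum and are no immune receptors. Their differences were 0.05 and -0.26, and Erlec1 was called only without luminous replicate 1 (limma adjusted p = 0.0399, up to 0.399 over the alternatives).

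Hemocytins are large proteins that make insect blood cells aggregate, and neither of the 2 genes was called. Hemocytin RI129_006783 stood at 206, 171 and 132 FPKM in the luminous libraries, against 178, 255 and 193 FPKM in the non-luminous libraries (limma adjusted p = 0.302), and the organs overlapped. Hemocytin RI129_005762 averaged 29.0 ± 7.78 FPKM in luminous libraries and 41.4 ± 4.67 FPKM in non-luminous libraries (SD, n = 3 each; limma adjusted p = 0.105). The LysM proteins lysmd2 and lysmd3 (RI129_002331) were taken for a putative peptidoglycan-binding domain and were not called. The more abundant, lysmd2 (RI129_003219), averaged 66.3 ± 4.57 FPKM in luminous libraries and 60.4 ± 8.64 FPKM in non-luminous libraries (SD, n = 3 each). The word lectin also caught Plec (RI129_002667), plectin, a cytoskeletal linker with no known immune role. Its difference was -0.58 (limma adjusted p = 0.0982), and it was called only without non-luminous replicate 3 (0.0258).

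All 7 scavenger receptor genes are described after class B member 1, in mammals a lipoprotein receptor whose relatives bind microbial lipids and dying cells. SCARB1 (RI129_012746) had 40.6, 108 and 49.9 FPKM in the luminous libraries and 248, 330.1 and 375 FPKM in the non-luminous ones. The highest luminous value was under the lowest non-luminous one, and the gene was lower by 4.80-fold in mean FPKM (difference -2.36, SE 0.348, limma adjusted p = 0.00454). The most abundant of the family in the luminous organ, SCARB1 (RI129_002050), went the other way, at 336, 339 and 426 FPKM in the luminous libraries, against 235, 242 and 178 FPKM in the non-luminous libraries (difference 0.75, SE 0.161, limma adjusted p = 0.0150). Without non-luminous replicate 3 this call was lost (adjusted p = 0.0533, the highest over all alternatives, with 0.0130 as the lowest).

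Of the other scavenger receptor genes, Scarb1 (RI129_012620) was too low to test and the remaining 4 were not called. Scarb1 (RI129_012262) averaged 12.0 ± 6.13 FPKM in luminous libraries and 20.5 ± 0.140 FPKM in non-luminous libraries (SD, n = 3 each; limma adjusted p = 0.0816). Luminous replicate 2, at 18.9 FPKM, was close to the non-luminous values, and without it the adjusted p was 0.00450 (up to 0.201 over the alternatives). SCARB1 genes RI129_000371, RI129_007845 and RI129_012738 had overlapping organs and differences of 0.46, 0.25 and -0.42.

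Spaetzle, the cytokine that activates Toll once a protease has cut it, was higher in the luminous organ. The gene spz (RI129_000242) stood at 8.19, 6.96 and 11 FPKM in the luminous libraries, against 3.84, 1.62 and 2.51 FPKM in the non-luminous libraries. The organs did not overlap, and the ratio of means was 3.29 (difference 1.44, SE 0.282, limma adjusted p = 0.0112). Its luminous libraries held 399 reads and its non-luminous ones 114. The most abundant spaetzle gene in both organs was spz3 (RI129_009417), which averaged 34.2 ± 3.88 FPKM in luminous libraries and 24.6 ± 5.51 FPKM in non-luminous libraries (SD, n = 3 each). It was called only without non-luminous replicate 2 (limma adjusted p = 0.0488, against 0.0923 with all libraries and up to 0.267 over the alternatives).

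The other spaetzle relatives were low. The gene spz4 (RI129_010462) had 1.46, 2.58 and 1.76 FPKM in the luminous libraries and 0.589, 0.680 and 0.847 FPKM in the non-luminous ones. There was no overlap between organs, but the gene was not called (limma adjusted p = 0.0644). With no filter on low values, with no trend or with quantile normalization the adjusted p was 0.0338, 0.0246 and 0.0144 (up to 0.15 over the alternatives). The gene spz5 (RI129_004558), in Drosophila a neurotrophin, averaged 2.03 ± 0.351 FPKM in luminous libraries and 1.8 ± 0.516 FPKM in non-luminous libraries (SD, n = 3 each).

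The receptor described as Toll itself went the opposite way to the ligand. Tl (RI129_002001) stood at 92.5, 105 and 94.9 FPKM in the luminous libraries, against 156, 152 and 151 FPKM in the non-luminous libraries. The libraries of each organ lay close together and apart from the other organ, and the difference was -0.65 (SE 0.101, limma adjusted p = 0.00532). It was the most abundant of the 7 Toll receptor genes in both organs, with 18301 reads in the luminous libraries and 26724 in the non-luminous ones. No other Toll receptor was called.

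The gene TLR8 (RI129_009879), named after a vertebrate receptor for microbial RNA, had 79.6, 43.5 and 35.6 FPKM in the luminous libraries and 79.9, 82.5 and 87.2 FPKM in the non-luminous ones. Luminous replicate 1 was close to the non-luminous values and the other luminous libraries were well under them. With all libraries the difference was -0.73 (SE 0.270, limma adjusted p = 0.0860), and without luminous replicate 1 the adjusted p was 0.00266 (up to 0.222 over the alternatives). Tollo, Toll-6 (RI129_001265) and Toll-7 (RI129_001279), which in Drosophila serve in development and the nervous system as well as in defence, differed by 0.40, -0.04 and 0.13. Tollo (RI129_001269) was called only under quantile normalization (limma adjusted p = 0.0394, up to 0.421 over the alternatives). Of the TLR7 genes, RI129_008956 differed by 0.42 and RI129_006391 was too low to test.

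Toll adaptors taken by the search words showed no called difference. Tollip (RI129_007163), in mammals a brake on Toll-like receptor signalling, averaged 169 ± 25.2 FPKM in luminous libraries and 153 ± 1.88 FPKM in non-luminous libraries (SD, n = 3 each). ECSIT (RI129_011531), which in mammals serves Toll signalling and the assembly of a respiratory complex, differed by -0.13, and a further ECSIT gene (RI129_007175) was too low to test.

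Downstream of Toll, the inhibitor cactus and the adaptor TRAF6 were higher. In a list meant for cytoplasmic Toll pathway genes, 2 of 12 tested genes were higher and 0 lower. The called share was 16.7%, under the 26.6% of all tested genes. Of the 12, 4 are patterning or homeobox genes taken in by the word dorsal. The gene cact (RI129_006526), the inhibitor that holds NF-kappa-B factors outside the nucleus, stood at 1023, 896 and 999 FPKM in the luminous libraries, against 529, 559 and 481 FPKM in the non-luminous libraries. The organs did not overlap, and the difference was 0.89 (SE 0.121, limma adjusted p = 0.00351). TRAF6 (RI129_007769), an adaptor of the same signalling, averaged 22.8 ± 2.31 FPKM in luminous libraries and 13.9 ± 2.82 FPKM in non-luminous libraries (SD, n = 3 each; difference 0.69, limma adjusted p = 0.0249). Its call was lost without luminous replicate 3 (0.0787), non-luminous replicate 1 (0.0862) or non-luminous replicate 3 (0.0944), with 0.0151 as the lowest over all alternatives.

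The uncalled genes of that list were chosen for naming after their values were seen. The dorsal gene dl (RI129_007131), the transcription factor that cactus binds, averaged 152 ± 14.5 FPKM in luminous libraries and 121 ± 9.34 FPKM in non-luminous libraries (SD, n = 3 each; limma adjusted p = 0.0771). The adaptor myd88 (RI129_006456) and the kinase gene pll (RI129_012879), pelle, differed by -0.24 and -0.14. The genes brought in by the word dorsal were sog, tolloid-like and dorsal root ganglia homeobox genes, and none of those tested was called.

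Genes that the deposited table puts in the KEGG Toll and Imd pathway were counted after their values were seen. Of the 42, 13 are members, and of the other 29, 2 were higher and 1 lower, a called share of 10.3% beside 26.6% of all tested genes. The lower one was NFKB1 (RI129_001318), described as the p105 subunit of NF-kappa-B, the ankyrin-bearing class to which Drosophila Relish belongs. It had 113, 142 and 169 FPKM in the luminous libraries and 407, 326 and 483 FPKM in the non-luminous ones. The highest luminous value was far under the lowest non-luminous one, and the gene was lower by 2.87-fold in mean FPKM (difference -1.52, SE 0.195, limma adjusted p = 0.00301). The higher ones were modSP (RI129_000645), in Drosophila the protease that links recognition to the spaetzle cascade, with a difference of 1.53 (limma adjusted p = 0.0209), and the ubiquitin-conjugating enzyme gene Ube2v2 (RI129_008370), with 0.56 (limma adjusted p = 0.0114). The modSP call was lost without any 1 of the non-luminous libraries (adjusted p 0.0525 to 0.0806), and the Ube2v2 call without non-luminous replicate 3 (0.0536).

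In the IMD list, 0 of 7 genes were higher and 1 was lower, a called share of 14.3% beside 26.6% of all tested genes. The signalling components imd, Dredd, Diap2, IKBKB and Map3k7 were not called. The called gene, Diap1 (RI129_001433), was taken in by its description and is an inhibitor of apoptosis that in Drosophila restrains caspases, stood at 360.3, 288 and 321 FPKM in the luminous libraries, against 639, 487 and 659.9 FPKM in the non-luminous libraries. No luminous value fell among the non-luminous ones (difference -0.87, SE 0.156, limma adjusted p = 0.00828). The adaptor gene imd (RI129_012101), named here after its values were seen, averaged 40.9 ± 1.74 FPKM in luminous libraries and 55.4 ± 10.7 FPKM in non-luminous libraries (SD, n = 3 each; limma adjusted p = 0.0943). Of 4 JAK-STAT genes, the transcription factor gene STAT5B (RI129_005103) was lower with a difference of -0.40 (limma adjusted p = 0.0310), a call made under 6 of 14 alternatives. The 3 Socs genes were not called, and the called share was 25.0% beside 26.6% of all tested genes.

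**Figure D3:**
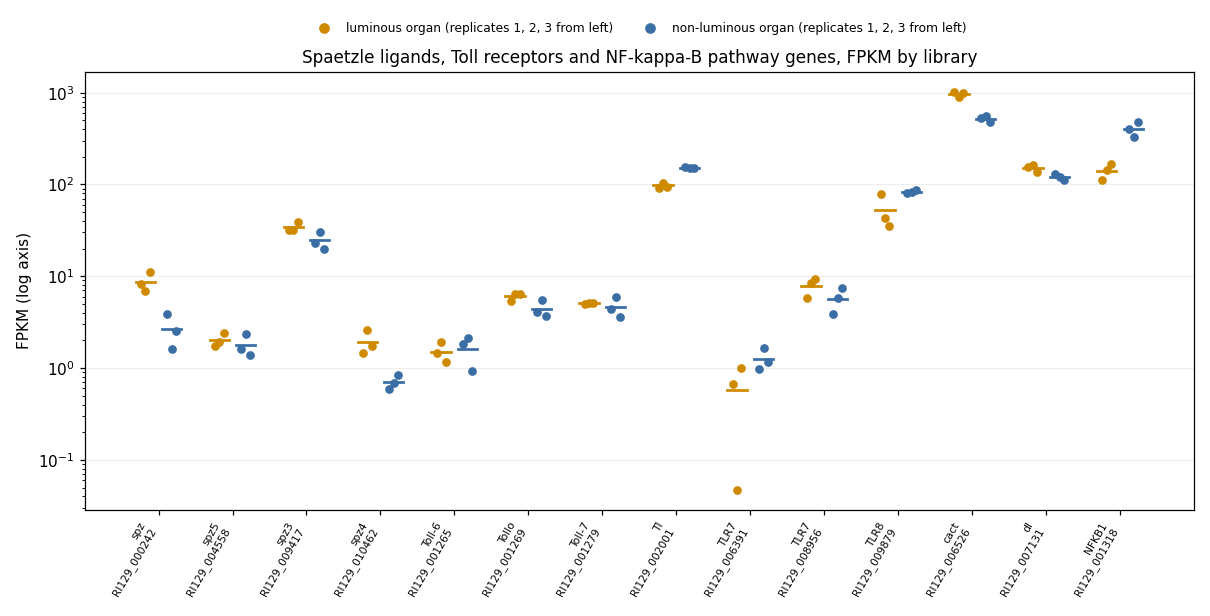
FPKM (log axis) of the spaetzle and Toll receptor genes and of cact, dl and NFKB1 in each library (points; luminous organ gold, left; non-luminous organ blue, right; lines, means of 3 libraries). The genes spz and cact are higher and Tl and NFKB1 lower in the luminous organ, and for TLR8 luminous replicate 1 lies beside the non-luminous values.

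On the log2(FPKM + 1) scale, a serpin had the largest difference of all members. SERPINB6 (RI129_002658), named after a human inhibitor of intracellular proteases, was listed at 0, 0.0415 and 0.0448 FPKM in the luminous libraries, against 33.6, 13.7 and 19.2 FPKM in the non-luminous libraries. That is 2 reads in all luminous libraries and 1450 reads in the non-luminous ones. Scaled to library totals, the non-luminous level was 779 times the luminous one (95% interval for counting error only, 215 to 6441), and the difference was -4.40 (SE 0.319, limma adjusted p = 0.000422). Of the 7 serpins, 3 were lower and 0 higher, a called share of 42.9% beside 26.6% of all tested genes.

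The 2 other lower serpins share the name SERPINB4. SERPINB4 (RI129_001389) stood at 78.5, 222 and 109 FPKM in the luminous libraries, against 312, 430.1 and 457 FPKM in the non-luminous libraries (difference -1.66, SE 0.357, limma adjusted p = 0.0149). SERPINB4 (RI129_001387) had 30.5, 61.6 and 29.9 FPKM in the luminous libraries and 82.2, 105 and 92.2 FPKM in the non-luminous ones (difference -1.25, SE 0.273, limma adjusted p = 0.0158). In both genes the organs did not overlap, and luminous replicate 2 was the luminous library nearest to the non-luminous ones. Both calls were lost without luminous replicate 3 (adjusted p = 0.0523 and 0.0525), non-luminous replicate 2 (0.0543 and 0.0596) or non-luminous replicate 3 (0.0630 and 0.0604). The lowest adjusted p over all alternatives was 0.00167 for RI129_001389 and 0.00114 for RI129_001387.

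The most abundant of all members was also a serpin and was not called. Serpinb6 (RI129_012281) stood at 1148, 2054 and 3309 FPKM in the luminous libraries, against 1102, 1127 and 1065 FPKM in the non-luminous libraries. The non-luminous libraries lay close together, while the luminous ones ranged over 2.88-fold. The difference was 0.85 (SE 0.344, limma adjusted p = 0.108), and without luminous replicate 1 the adjusted p was 0.00802 (up to 0.238 over the alternatives). The gene described as Alaserpin (RI129_001757), after a serpin of hornworm blood, averaged 603 ± 218 FPKM in luminous libraries and 635 ± 78.4 FPKM in non-luminous libraries (SD, n = 3 each). SERPINB4 (RI129_006521) had a difference of 0.00 (SE 0.110), and SERPINB4 (RI129_001802) one of -1.06 (limma adjusted p = 0.0574), which was called without luminous replicate 2 (0.0207, up to 0.186 over the alternatives).

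The word serpin leaves out relatives described as antichymotrypsin or as serine protease inhibitors, and these were counted after the member values had been seen. Of 16 such genes, 1 was higher and 9 were lower, a called share of 62.5% beside 26.6% of all tested genes. Their median difference was -1.21 against -0.09 over all tested genes. An antichymotrypsin-2 gene (RI129_001756) had 0.174, 1.24 and 0.230 FPKM in the luminous libraries and 22.2, 9.95 and 13.8 FPKM in the non-luminous ones (difference -3.40, SE 0.363, limma adjusted p = 0.00175). Another (RI129_001754) had 2.06, 5.06 and 2.82 FPKM in the luminous libraries and 25.9, 21.3 and 25.5 FPKM in the non-luminous ones (difference -2.60, SE 0.263, limma adjusted p = 0.00139). The higher one was Spn28Dc (RI129_007979), with a difference of 0.68 (limma adjusted p = 0.0366), called under 7 of 14 alternatives. Without luminous replicate 1 the lower calls of Spn42Dd (RI129_001752) and of the antichymotrypsin-2 gene RI129_001755 were lost (limma adjusted p = 0.0558 and 0.067). These calls were made under only 5 and 2 of 14 alternatives, and that of the antichymotrypsin-2 gene RI129_001398 under 10 of 14. The remaining lower calls held under every alternative that tested them. The organs did not overlap in RI129_001756 or RI129_001754.

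Lysozymes, enzymes that cut bacterial cell walls, were the only antimicrobial effectors among the members. Of 3 genes 1 was higher and 1 lower, a called share of 66.7% beside 26.6% of all tested genes. LYZ (RI129_011234) had 9.11, 18.5 and 22.1 FPKM in the luminous libraries and 3.50, 5.45 and 4.71 FPKM in the non-luminous ones. Its organs did not overlap, and the gene was higher by 3.64-fold in mean FPKM (difference 1.59, SE 0.323, limma adjusted p = 0.0124). The lysozyme gene RI129_004015 was lower, at 36.0, 37.0 and 46.9 FPKM in the luminous libraries, against 49.3, 62.5 and 57.7 FPKM in the non-luminous libraries (difference -0.49, SE 0.15, limma adjusted p = 0.0471). That call lay at the threshold and was made under 4 of 14 alternatives (adjusted p 0.0371 to 0.149). It was not made under either rescaling or without luminous replicate 1 (0.091).

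The lysozyme gene RI129_004360 stood at 38.5, 55.4 and 76.1 FPKM in the luminous libraries, against 39.7, 31.9 and 30.4 FPKM in the non-luminous libraries. Luminous replicate 1 fell within the non-luminous values, and the gene was not called (difference 0.68, limma adjusted p = 0.0791). Without that library the adjusted p was 0.0115 (up to 0.216 over the alternatives).

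**Figure D4:**
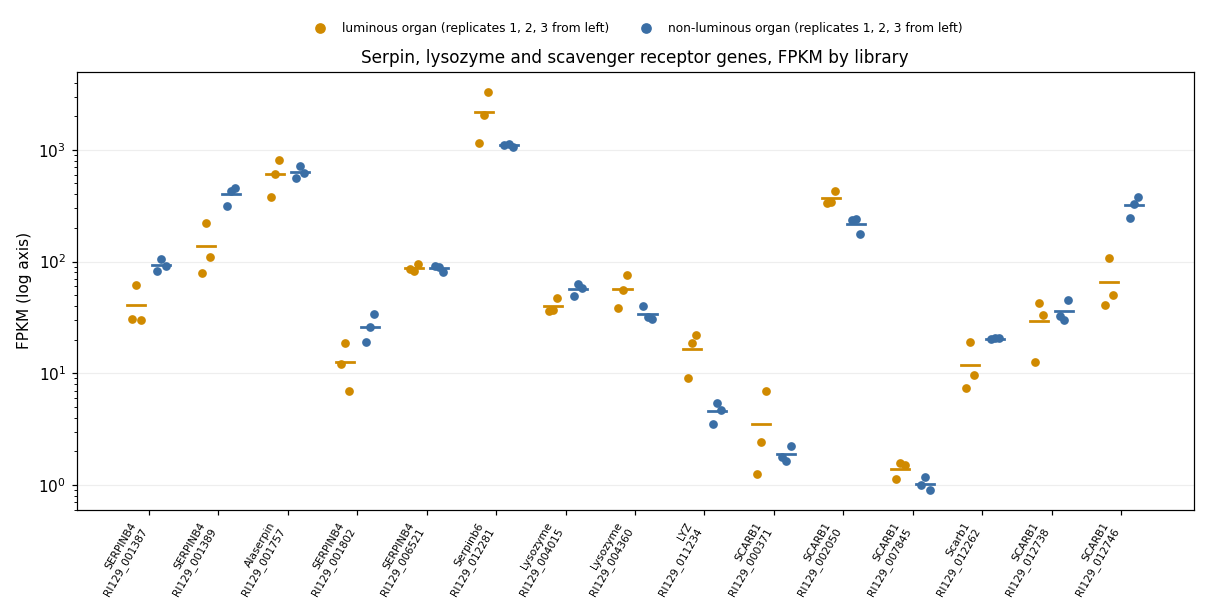
FPKM (log axis) of the serpins other than RI129_002658, the lysozymes and the tested scavenger receptors in each library (points; luminous organ gold, left; non-luminous organ blue, right; lines, means of 3 libraries). Serpinb6 (RI129_012281) spreads over 2.88-fold among the luminous libraries, while SCARB1 (RI129_012746) and SERPINB4 (RI129_001389) lie lower in the luminous organ without overlap.

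The melanization list held clip-domain proteases, phenoloxidase-activating enzymes and factors, 4 phenoloxidase genes and the tautomerase gene yellow-f2. It also took in genes described as snake and easter, proteases of the Drosophila cascade that leads to spaetzle. The higher genes RI129_000747 and RI129_011989 are both described as snake. Of 32 tested genes, 7 were higher and 2 lower, a called share of 28.1% beside 26.6% of all tested genes. Of the higher calls, those of RI129_000820, RI129_002546, RI129_007621 and RI129_011989 were made under 9, 8, 6 and 6 of 14 alternatives. The gene RI129_002573, a phenoloxidase-activating factor 2, in beetles a clip-domain protein needed to activate phenoloxidase, had 18.2, 22.6 and 64.4 FPKM in the luminous libraries and 3.18, 2.98 and 3.56 FPKM in the non-luminous ones. Luminous replicate 3 was far above the other luminous libraries, and all were above the non-luminous ones (difference 2.87, SE 0.425, limma adjusted p = 0.00455). The gene snk (RI129_000747), described as the protease snake of the Drosophila cascade that leads to spaetzle, stood at 255, 189.9 and 219 FPKM in the luminous libraries, against 59.5, 74.4 and 54.5 FPKM in the non-luminous libraries. It was higher by 3.53-fold in mean FPKM without overlap (difference 1.8, SE 0.161, limma adjusted p = 0.000851). These 2 calls held under all 14 alternatives.

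The lower melanization genes were CLIPB4 (RI129_007829), a clip-domain protease, and PPAF1 (RI129_010659), a phenoloxidase-activating factor. CLIPB4 averaged 75.0 ± 28.7 FPKM in luminous libraries and 185 ± 22.9 FPKM in non-luminous libraries (SD, n = 3 each; difference -1.37, limma adjusted p = 0.0149), and its call was lost without non-luminous replicate 2 (0.0508) or 3 (0.0629). PPAF1 averaged 5.91 ± 0.8 FPKM in luminous libraries and 9.84 ± 1.34 FPKM in non-luminous libraries (SD, n = 3 each; difference -0.65, limma adjusted p = 0.0349), a call made under 5 of 14 alternatives and not without luminous replicate 1 (0.0596). Other, more abundant genes share the PPAF1 name. Of these, RI129_000820 was higher (difference 1.31, limma adjusted p = 0.026), a call made under 9 of 14 alternatives, and the rest were not called. A further CLIPB4 gene, RI129_002160, named after its values were seen, was higher, with a difference of 1.04 (limma adjusted p = 0.0120), a call lost without non-luminous replicate 3 (0.0528). The 4 phenoloxidase genes themselves, PPO1, named for the same reason, were not called, with differences from -0.73 (RI129_013124) to 0.22 (RI129_013127).

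In a list meant for phagocytic receptors and complement-like thioester proteins, 3 of 9 were higher and 2 lower. The called share was 55.6%, beside 26.6% of all tested genes. The TEP1 genes RI129_005141 and RI129_005142, described as thioester-containing, were not called (limma adjusted p = 0.473 and 0.662). Lrpap1 (RI129_000351), taken in as an alpha-2-macroglobulin receptor-associated protein, was not called either. These uncalled genes were named after their values were seen. CPAMD8 (RI129_010972), an alpha-2-macroglobulin family protein, stood at 703, 618 and 929.9 FPKM in the luminous libraries, against 442, 388 and 407 FPKM in the non-luminous libraries (difference 0.84, SE 0.166, limma adjusted p = 0.0114). CPAMD8 (RI129_001773) had 3.02, 11.9 and 4.77 FPKM in the luminous libraries and 48.3, 26.2 and 20.4 FPKM in the non-luminous ones (difference -2.19, SE 0.467, limma adjusted p = 0.0146). Neither had overlapping organs, so this family too held called genes on both sides. The first call was lost without non-luminous replicate 3 (0.0501), and the second without luminous replicate 3 (0.0504) or non-luminous replicate 1 (0.0525). The most abundant gene of the list, CPAMD8 (RI129_010971), named after its values were seen, was also higher (difference 0.64, limma adjusted p = 0.0181). Its call was lost without non-luminous replicate 1, 2 or 3 (0.0513, 0.0615 and 0.0757).

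Cd109 (RI129_003852), of the same protein family, was higher with a difference of 0.87 (limma adjusted p = 0.0149), and its call was lost without luminous replicate 3 (0.0512). The gene crq (RI129_007984), croquemort, a Drosophila receptor for dying cells and a relative of the class B scavenger receptors, was lower with a difference of -1.18 (limma adjusted p = 0.0251). That call was lost without luminous replicate 3 (0.0739), non-luminous replicate 2 (0.0862) or non-luminous replicate 3 (0.0984). The more abundant crq gene, RI129_008119, named after its values were seen, was not called (difference 0.09, limma adjusted p = 0.678). It averaged 160 ± 22.5 FPKM in luminous libraries and 149.8 ± 17.1 FPKM in non-luminous libraries (SD, n = 3 each). Over all partner lists together, 12 of 64 tested genes were higher and 6 lower, a called share of 28.1% beside 26.6% of all tested genes. Under quantile normalization and under median-of-ratios rescaling the split was 15 higher and 4 lower.

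Calls among the members fell on genes with and without the GO term for innate immune response. Of 25 tested members with the term, 4 were higher and 7 lower, and of 30 tested members without it, 4 were higher and 5 lower. Their called shares were 44.0% and 30.0%, beside 26.6% of all tested genes. Among the genes of the table with that term that are not members, 10 of 95 tested were higher and 8 lower. Their called share was 18.9%, under the 26.6% of all tested genes.

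Markers of other tissues differed between the organs and were measured beside these counts. Single genes of these lists were named after their values were seen. The called share of tested genes was 69.2% in the muscle list, 49.0% in the gut list and 30.8% in the neuron list. It was 87.5% in the fat body list and 66.7% among genes described as luciferin 4-monooxygenase, beside 26.6% of all tested genes. The muscle list held 13 genes, of which 1, the lower gene zip (RI129_009866), is described as non-muscle myosin. Of the 12 others, 7 were higher and 1 lower, and they summed to 23619 to 24309 FPKM in the luminous libraries and 9403 to 11987 FPKM in the non-luminous ones. Of 51 tested genes of the gut list 3 were higher and 22 lower, but 4 of these are trypsin or chymotrypsin inhibitors taken in by the search words, 1 of them higher. Without these, 2 of 47 were higher and 22 lower. Their summed levels were 725 to 2024 FPKM in the luminous libraries and 4391 to 6073 FPKM in the non-luminous ones. The chymotrypsin gene RI129_002540 alone gave 3614, 2647 and 4140.3 FPKM of the non-luminous sums. In the luminous replicates it stood at 1.63, 0.37 and 0.332 FPKM. Sums without this gene were not taken. Of the 90 genes of the list, 16 were at 0 in every luminous library and 2 in every non-luminous one. Neuronal genes were called in both directions, 2 higher and 2 lower of 13, with summed levels of 554 to 668 FPKM in the luminous libraries and 386 to 463 FPKM in the non-luminous ones. Of 21 tested genes described as luciferin 4-monooxygenase, a name shared with many related enzymes, 2 were higher and 12 lower. Fat body genes were called in both directions, 3 higher and 4 lower of 8. Their summed levels were 1222 to 1922 FPKM in the luminous libraries and 1183 to 1275 FPKM in the non-luminous ones. Of the luminous sums, the transferrin gene RI129_001986 alone gave 748, 996 and 1504 FPKM. It gave 515, 468 and 466 FPKM of the non-luminous sums.

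The hemocyte list held 28 genes, of which 16 are phenoloxidase-activating enzymes and factors already counted in the melanization list. Of its 26 tested genes 2 were higher and 3 lower, a called share of 19.2% beside 26.6% of all tested genes. The 12 other genes, which include the 2 hemocytins and the 4 phenoloxidase genes, had 0 higher and 2 lower. The lower ones, named after their values were seen, were the integrin genes ItgaPS4 (RI129_003409) and scb (RI129_003794). They were called under 6 and 5 of 14 alternatives. The 12 genes together summed to 425, 446 and 424 FPKM in luminous replicates 1, 2 and 3, against 459, 557 and 486 FPKM in the non-luminous replicates. The 16 phenoloxidase-activating genes summed to 783, 1158 and 1769.6 FPKM in luminous replicates 1, 2 and 3, against 916, 1006 and 939 FPKM in the non-luminous replicates. The summed level of the immune members was 4192, 5612 and 7236 FPKM in luminous replicates 1, 2 and 3, against 5047, 5450.2 and 5290.1 FPKM in the non-luminous replicates. Serpinb6 (RI129_012281) alone gave 1148, 2054 and 3309 FPKM of the luminous sums. The part of muscle, gut, fat body and blood cells in the differences of the immune genes was not tested.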

How the data were processed

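Messenger RNA of 6 libraries was analysed, 3 of the luminous and 3 of the non-luminous organ, grouped by GEO's tissue label. Per the labels' protocols, Trizol served to extract RNA and a stranded mRNA kit to make the libraries. The FPKM values were computed and deposited by the authors for 12533 genes. Per the submitters' processing notes, the tools were R 3.2.0, HTSeq, HISAT2 and Trimmomatic, named without their roles. For the genome build, the annotation, the strand setting and filters the entry is: not given in the sources used here. 0 value columns were left without a sample. Descriptions, KEGG and GO terms come from the same table.

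The 9863 genes that averaged 1 FPKM or more across the 6 libraries were fitted as log2(FPKM + 1) with limma 3.58.1 in R 4.3.3 (lmFit, eBayes with trend, two-sided, no block), with Benjamini-Hochberg adjustment over all of them and calls at 0.05. The fit was tested on simulated data. Library totals were read from the steps between FPKM values: among 11795 genes with 3 or more libraries above 0, 99.46% came out as whole reads, with a tolerance of 0.05. The totals assume that gene lengths are coding lengths, multiples of 3, which gives a median length of 1209 bases and, without that factor, 403. Read numbers, and the interval on a ratio of reads, cover counting error only.

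Members followed a search of the descriptions. LysM proteins, hemocytins, Toll adaptors and plectin were counted as groups of their own. Named genes were the most abundant member of each role group in each organ, up to 4 called members per direction and group, and up to 2 called partner genes per list and direction. Others are said to be named after their values were seen. 1 called lectin gene is not reported here. Members, partner lists and markers were chosen with earlier results of these data known, and the KEGG, GO and serpin relative counts, like the sums of marker lists without misfits, were added after values were seen. The alternatives were pseudocounts of 0.1 and 5, no filter, a minimum mean of 5 FPKM, quantile normalization, median-of-ratios rescaling, a fit without trend, a fit with the replicate number as block, and fits that leave out 1 library each.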

Additional observations from a re-analysis of the deposited data

How the results depend on the processing

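Of the 20 called members, 11 were called under all 14 alternatives, and no called member changed direction under any. With each library left out in turn, called members ranged from 12 to 24, those higher from 5 to 11 and those lower from 7 to 13, with the lowest counts in each case without non-luminous replicate 3. Other settings gave 17 to 22 called members. Partner genes called, 18 with all libraries, ranged from 6 to 22 with a library left out, those higher from 4 to 17 and those lower from 2 to 7. Without luminous replicate 3 there were 9, without non-luminous replicate 1 there were 10, without non-luminous replicate 2 there were 9 and without non-luminous replicate 3 there were 6. Over all genes the called share was 16.3%, 15.5%, 16.0% and 11.3% in these fits, and 26.6% with all libraries. Which property of these libraries lowers the counts was not tested. The median difference of all genes was -0.095 in the deposited values. Quantile normalization brought it to 0.074 and median-of-ratios rescaling to -0.003.

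With the replicate number as a block, 17 members were called, 7 higher and 10 lower, and 13 partner genes, 9 higher and 4 lower. The deviations of same-numbered libraries correlated at -0.111, -0.009 and -0.166, and no library correlated best with its own number in the other organ. Whether same-numbered libraries share animals is not stated. These correlations cannot decide it, because different organs of the same animals need not deviate together. The organs have 3 libraries each, and FPKM below about 1 rests on few reads.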
